A study of Mus musculus and Homo sapiens with 12 samples.

Results

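S100 proteins are small calcium-binding proteins, and the 10 members described here are the genes S100A1, S100A4, S100A6, S100A8, S100A9, S100A10, S100A11, S100A13, S100A14 and S100A16, taken by gene symbol from the comparison tables of a human and a mouse model of pancreatic ductal carcinoma in the liver. The human table had rows for 9 of them among 18190 genes, all with an adjusted p, and S100A8 was not analysed in that model. All 10 had a row among the 23201 genes of the mouse table, and 8 of these had an adjusted p. RNA sequencing covered 12 samples in 4 groups of 3 biological replicates: PANC1 LM3, a third-generation liver-metastatic derivative, against parental PANC1, an established line of human pancreatic ductal carcinoma, and KPC LM2, a second-generation derivative, against parental KPC, a mouse line of the same cancer. The genotype of all 4 groups was given as WT. By the submitters' protocol, RNA came from liver tumours collected on day 21, after 500000 cells of the line had been placed in the spleen on day 1. The host animal is not given in the labels, nor is whether a derivative is 1 clone, and the sample titles name cells where the protocol names tumours. The series title sets highly against lowly metastasizing cells, so the question was how S100 genes differed between each selected line and its parent.

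The files used here hold 1 comparison per model with no value per sample, so each gene has a mean normalised count over the samples (its mean count from here on), a log2 fold change and its standard error (SE), and the depth of each sample is unknown. Which group stands on top of the fold change is not given in the headers. Values are therefore called positive or negative as they stand in each table, without saying in which line a gene was higher. A gene is called where its adjusted p by the authors' Wald test, a test of the fold change against its SE, was under 0.05. In PANC1, 52.5% of 17838 tested genes were called, 26.0% with a positive and 26.5% with a negative value. The background was much lower in KPC, where 10.4% of 20050 tested genes were called, 5.77% positive and 4.6% negative. Among genes at a mean count of 64 or more, 69.3% were called in PANC1 (32.7% positive, 36.5% negative) and 12.7% in KPC (10.6% positive, 2.11% negative). With a fold change beyond 1 on the log2 scale also asked for, 15.5% of tested genes were called in PANC1 and 6.5% in KPC. The median log2 fold change at 64 or more was -0.03 in PANC1 and 0.22 in KPC, and recentring on it left 23.5% of all KPC calls positive, against 55.7% as listed.

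An S100 protein carries a pair of EF-hand loops, helix-loop-helix motifs that hold calcium, and usually works as a dimer. Calcium opens a groove on the protein, and through it the dimer binds and regulates other proteins such as annexins, myosin and cytoskeletal proteins. Some members are also secreted and act on cell surface receptors, RAGE (the gene AGER) and TLR4 among them. Most S100A genes lie side by side in clusters on human chromosome 1 and mouse chromosome 3, and several are known to be abundant in pancreatic cancer cells.

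Of the 9 members with an adjusted p in PANC1, 8 were called, 2 positive and 6 negative, against a background of 52.5% in either direction. At a mean count of 64 or more 6 of 6 were called, where 69.3% of genes were. Of the 8 in KPC, 1 was called, positive, against a background of 10.4%, and this was S100a4. All 8 were at 64 or more, where 12.7% of KPC genes were called. The median log2 fold change of the tested members was -0.82 in PANC1 and 0.35 in KPC. That of all tested genes was -0.002 in PANC1 and -0.08 in KPC. For all genes at a mean count of 64 or more the median was -0.03 in PANC1 and 0.22 in KPC. Among PANC1 members at a mean count over 64, S100A4, S100A10 and S100A13 were negative and beyond 1 on the log2 scale, S100A6 was negative and smaller, and S100A11 and S100A16 were positive and under 1.

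**Figure D1:**
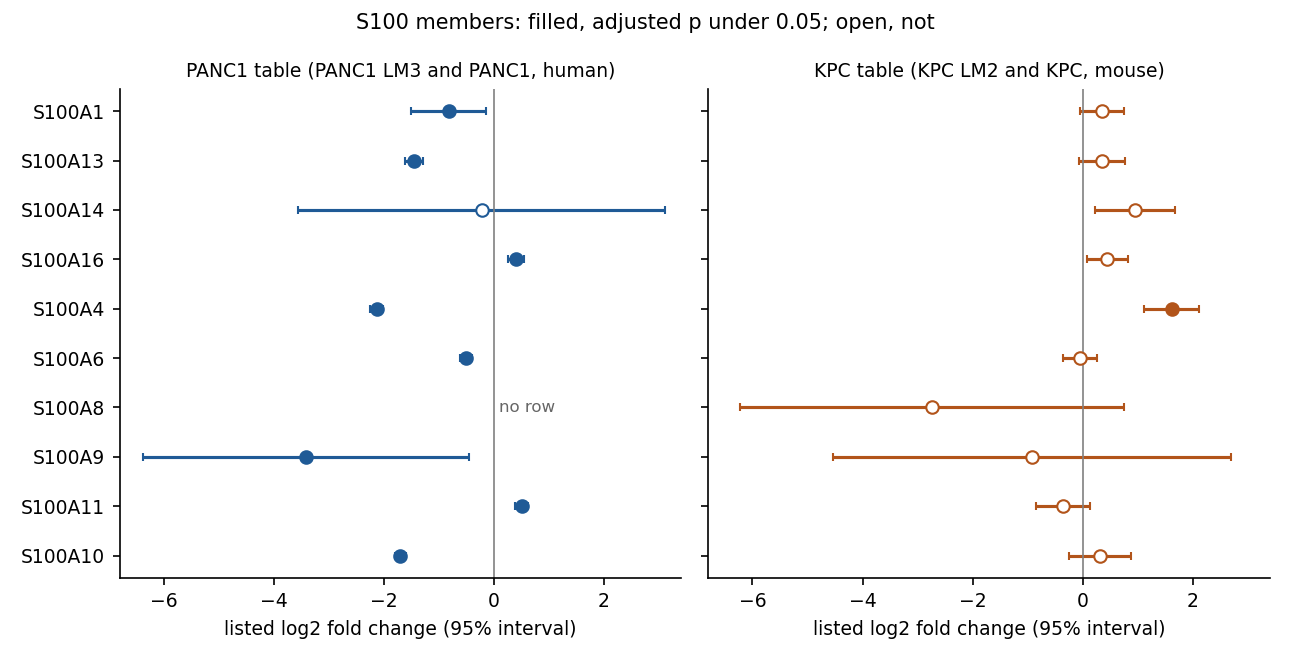
Log2 fold change listed by the authors for each S100 member (x axis, log2 units) in the PANC1 table (left) and the KPC table (right), with 95% intervals from the SE and filled points where the adjusted p was under 0.05. S100A4 stands at -2.13 in PANC1 and at 1.62 in KPC, and the widest intervals belong to S100A8, S100A9 and S100A14 where their counts were near the floor.

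S100A4, also called metastasin, binds non-muscle myosin IIA and is widely used as a marker of motile, mesenchymal-like cells. The authors' deposited table for PANC1 listed S100A4 at a mean count of 3815 and a log2 fold change of -2.13 ± 0.06 (SE), a 4.36-fold difference, with a Wald test adjusted p of 8.72e-261. Its Wald statistic was the 32nd largest in size of 17838, and 154 of the 11301 tested PANC1 genes at 64 or more (1.36%) had a negative value as large. In KPC the authors' deposited table listed S100a4 at a mean count of 2764 and a log2 fold change of 1.62 ± 0.25, a 3.07-fold difference of the opposite sign, with a Wald test adjusted p of 3.47e-08. Its 95% interval ran from 1.12 to 2.12 on the log2 scale, and 104 of the 9767 tested KPC genes with a mean count of 64 or more (1.07%) had a positive value as large. After recentring on the median of those genes S100a4 was at 1.40, and still called (adjusted p = 4.6e-06). With a t distribution of 4 degrees of freedom in place of the normal one 35.6% of tested genes were called in PANC1, S100A4 among them, and 0.0% in KPC, where the smallest adjusted p of any gene was 0.23, so this setting says nothing about S100a4. S100A4 was the one member called in both models. Of 972 symbols called in both tables, 556 had opposite signs (57.2%), and with the KPC sign turned round 416 had (42.8%), so which case is the more frequent rests on the unstated group order.

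The mouse genes S100a4 and S100a6 lie in the same cluster, with only S100a5 between them. S100A6, calcyclin, is a cell-cycle-associated member that binds the protein of the gene CACYBP and annexin A11. In PANC1 the authors' deposited table listed S100A6 at a mean count of 22468 and -0.50 ± 0.05 on the log2 scale, a 1.42-fold difference (adjusted p = 7.81e-20 by the Wald test). The authors' deposited table for KPC gave S100a6 a mean count of 20582 and a log2 fold change of -0.05 ± 0.16, with a 95% interval from -0.36 to 0.26 and a Wald test adjusted p of 0.85. The whole of that interval lies below the interval of S100a4, and the difference between the 2 genes was not tested.

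The promoter windows of S100a4, S100a6 and S100a11 are shown because they belong to the called member in KPC, to its highly expressed neighbour and to a member whose listed sign was opposite to that of S100A4 in both tables, though called in PANC1 only. They are RefSeq sequences of mouse build GRCm38.p6, which is not the authors' mm39, from 250 bases before to 50 after the start site, all on the plus strand. Both strands were searched for the TATA box, with the letters TATAAA, the AP-1 motif, with the letters TGANTCA, the GC box, with the letters GGGCGG, the cAMP response element, with the letters TGACGTCA, and the E-box, with the letters CAGGTG. Capitals mark the first 3 of these. None of the matches shown overlaps another. The windows are at chr3:90603520-90603819 for S100a4, chr3:90612644-90612943 for S100a6 and chr3:93520246-93520545 for S100a11.
S100a4: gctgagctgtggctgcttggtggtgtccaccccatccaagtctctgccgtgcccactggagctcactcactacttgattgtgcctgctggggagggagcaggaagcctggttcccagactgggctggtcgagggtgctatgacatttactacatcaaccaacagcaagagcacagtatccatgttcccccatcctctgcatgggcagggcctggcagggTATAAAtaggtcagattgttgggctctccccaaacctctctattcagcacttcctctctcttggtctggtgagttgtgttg
S100a6: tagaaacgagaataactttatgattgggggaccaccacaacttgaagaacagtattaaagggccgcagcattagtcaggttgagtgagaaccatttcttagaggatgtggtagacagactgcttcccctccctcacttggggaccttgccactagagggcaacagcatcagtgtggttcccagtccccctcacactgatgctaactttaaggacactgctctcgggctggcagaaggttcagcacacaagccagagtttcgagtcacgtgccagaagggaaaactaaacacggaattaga
S100a11: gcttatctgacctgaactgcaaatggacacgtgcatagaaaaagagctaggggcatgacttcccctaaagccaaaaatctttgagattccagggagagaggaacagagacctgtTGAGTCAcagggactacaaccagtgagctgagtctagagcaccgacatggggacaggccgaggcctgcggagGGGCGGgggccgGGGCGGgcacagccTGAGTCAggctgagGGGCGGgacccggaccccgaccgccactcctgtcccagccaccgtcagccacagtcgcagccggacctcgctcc
S100a4 has TATAAA starting 31 bases before its start site, a sequence held by 13.6% of the 32851 windows of the same length. The S100a6 window holds none of the 5 motifs. In the S100a11 window TGANTCA occurs starting 136 and 38 bases before the start (a motif held by 7.81% of windows), and GGGCGG starts 64, 52 and 24 bases before it (35.7% of windows hold it). Windows were found for 8 of the 10 members, without S100a10 and S100a14. Among their 9 windows TATAAA was found for S100a4, S100a8 and S100a9, TGANTCA for S100a11 and S100a16, and GGGCGG for S100a9, S100a11 and S100a16. CAGGTG, held by 20.2% of all windows, was found for S100a9 and S100a16, and TGACGTCA, held by 1.79%, for none of the members. A match is a run of letters and was not tested as a binding site.

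S100A10 and S100A11 are the annexin partners of the family and sit next to each other in the mouse order. S100A10, or p11, does not respond to calcium, forms a tetramer with annexin A2 at the plasma membrane and binds plasminogen there. The authors' deposited table for PANC1 listed S100A10 at a mean count of 4760 and a log2 fold change of -1.70 ± 0.05, a 3.24-fold difference (Wald test adjusted p = 1.84e-229), the 42nd largest statistic in size. For KPC the authors' deposited table listed S100a10 at 5637 and 0.32 ± 0.29, with an interval from -0.25 to 0.89 (Wald test adjusted p = 0.47). S100A11, calgizzarin, binds annexin A1. The authors' deposited table for PANC1 gave it 0.51 ± 0.06 on the log2 scale at a mean count of 1932, a 1.42-fold difference (Wald test adjusted p = 1.27e-15). For KPC, S100a11 was listed in the authors' deposited table at 1222 and -0.35 ± 0.25, with an interval from -0.85 to 0.14 (Wald test adjusted p = 0.34). After recentring it was at -0.57 (adjusted p = 0.12). RefSeq lists a pseudogene of S100a11 in the mouse, and reads of near-identical copies could be split between them.

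S100A13 and S100A1 lie head to head, and in RefSeq their mouse genes overlap. S100A13 takes part in the release of FGF1 and interleukin 1 alpha, proteins that leave the cell without a signal peptide. The authors' deposited table for PANC1 listed S100A13 at a mean count of 833 and -1.45 ± 0.08 on the log2 scale, a 2.74-fold difference (Wald test adjusted p = 3.38e-69). Its KPC value in the authors' deposited table was 0.35 ± 0.21 at 802, with an interval from -0.06 to 0.76 (Wald test adjusted p = 0.26). S100A1, known best from the heart, where it acts on calcium release and uptake in the sarcoplasmic reticulum, was listed in the authors' deposited table at -0.82 ± 0.35 in PANC1 with a mean count of only 29.8 (Wald test adjusted p = 0.036, and 0.15 with the t distribution). The KPC entry for S100a1 in the authors' deposited table was 0.35 ± 0.20 at 446 (Wald test adjusted p = 0.25). S100a1 and S100a13 thus had the same KPC value to 2 decimals. The library kit does not mark strand and the counting options are not given in the sources used here, so reads from the overlap of these 2 genes cannot be told apart.

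S100A16 and S100A14 are members expressed in epithelia. S100A16 was positive in both tables. The authors' deposited tables listed it at 0.41 ± 0.08 in PANC1 with a mean count of 721 (Wald test adjusted p = 6.24e-07) and at 0.45 ± 0.19 in KPC with 672 (Wald test adjusted p = 0.11). Only the PANC1 value passed the threshold. S100a14 in KPC was listed in the authors' deposited table at 0.95 ± 0.37 with a mean count of 101, a 1.93-fold difference that did not pass (Wald test adjusted p = 0.077, interval 0.22 to 1.68). In PANC1 the authors' deposited table gave S100A14 a mean count of 1.16 and -0.22 ± 1.70, so that no difference was detectable at this level.

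S100A8 and S100A9 form calprotectin, an abundant protein of neutrophils and monocytes that is released as an alarm signal. Both were near the floor. S100A9 in PANC1 had a mean count of 2.30 and -3.42 ± 1.51 in the authors' deposited table, with a Wald test adjusted p of 0.045, and 0.17 with the t distribution. With so few counts that fold is a fitted value, and it is not a bound. In KPC the authors' deposited table gave S100a8 a mean count of 1.73 with -2.73 ± 1.78 and S100a9 1.75 with -0.92 ± 1.85, both without an adjusted p (unadjusted Wald p = 0.12 and 0.62). Neutrophil and granulocyte markers were also low. In PANC1 the 4 of 14 with a row had mean counts of 2.27 to 28.5, and CD177 (-5.45 ± 1.28) and ITGAM (-0.92 ± 0.34) were called negative in the authors' deposited table, with the sign of S100A9. The 13 with a KPC row had mean counts from 1.76 to 12.4, and 3 of them had an unadjusted p under 0.05. By the authors' Wald test 0 of the 10 with an adjusted p were called, against 10.4% of all tested KPC genes. Whether these markers bear on the S100A9 value was not tested. PANC1 counts rest on a human build, so RNA of host neutrophils of another species would largely go uncounted there.

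**Figure D2:**
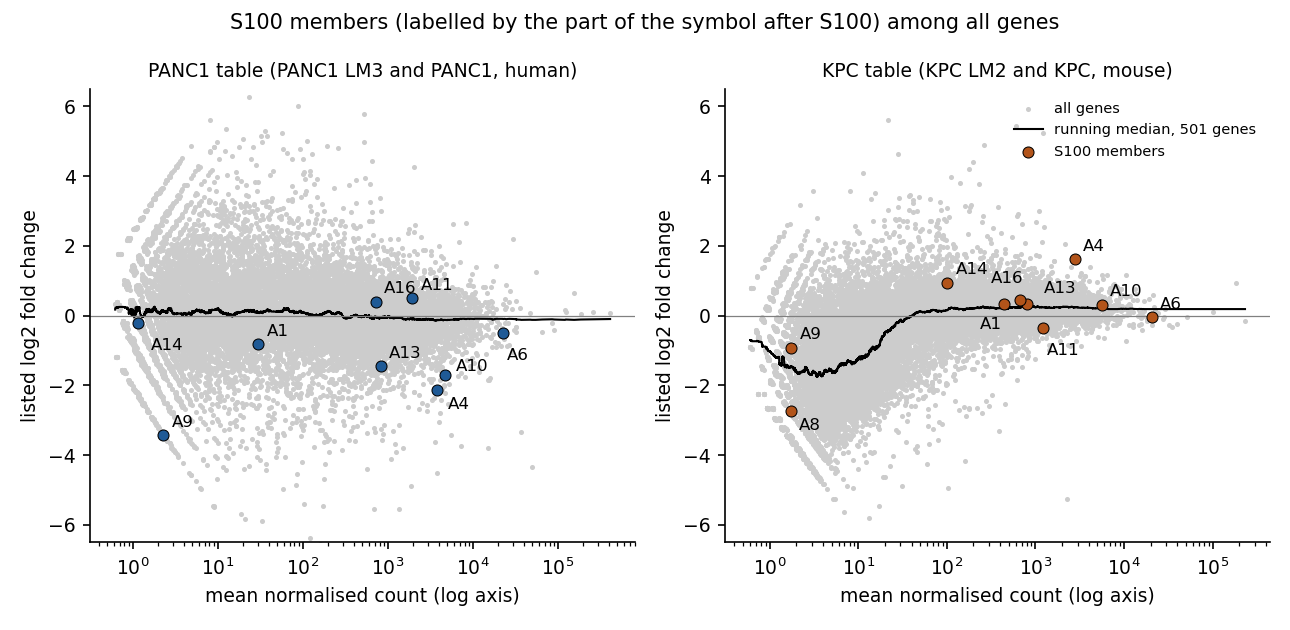
Listed log2 fold change (y axis) against mean count (x axis, log scale) for all genes (grey), the running median along the level (black line) and the S100 members, in the PANC1 table (left) and the KPC table (right). In PANC1 S100A4, S100A10 and S100A13 lie at -1.40 or lower from the line, while in KPC the line is below 0 at low counts and the members other than S100A4 and S100A14 with counts over 64 lie at -0.59 to 0.21 from it.

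In PANC1 the running median of the fold change along the level was between -0.13 and 0.14 at the levels of all 9 members. In KPC the running median at the level of S100a1, S100a10, S100a13 and S100a16 was 0.21 to 0.24, and these 4 members lay 0.11 to 0.21 above it on the log2 scale. S100a4 was at 1.38 from it, S100a14 at 0.78, S100a6 at -0.24 and S100a11 at -0.59. At the level of S100a8 and S100a9 the running median was -1.47, so a negative value there was that of the typical gene with so few counts. The median of all KPC genes under 16 was -1.45, and 89.7% of them were negative.

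Levels could be compared between members in the mouse, where exonic lengths from GENCODE M21 of GRCm38 were at hand. Per kilobase of exon the mean count was 15056 for S100a6, 4733 for S100a4, 4651 for S100a10 and 2391 for S100a11. It was 1121 for S100a13, 643 for S100a1, 416 for S100a16 and 58.3 for S100a14. S100a9 and S100a8 had 3.36 and 2.49. These are means over 6 samples of both groups with no spread listed, so whether neighbours in this order, such as S100a4 and S100a10, differ cannot be judged. Lengths for PANC1 were not used here, and its levels are given per gene only.

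Outside the 10 members, 5 S100 genes had a PANC1 row and 7 a KPC row, all of them tested, with 2 called in each. These are 40.0% in PANC1 and 28.6% in KPC, against 52.5% and 10.4% of all tested genes. In PANC1 S100A2, an epithelial member, was listed in the authors' deposited table at 0.81 ± 0.23 with a mean count of 64.6 (Wald test adjusted p = 0.0013). For S100A5 the authors' deposited table gave -2.33 ± 0.70 with 9.96 (Wald test adjusted p = 0.0022). S100P, a member known from pancreatic cancer, was at 0.23 ± 0.28 with 40.9 in PANC1 (Wald test adjusted p = 0.52) in the authors' deposited table. In KPC the authors' deposited table listed S100a7a, a mouse relative of the human skin protein psoriasin, at -2.61 ± 0.44 with a mean count of 158 (Wald test adjusted p = 6.1e-07). S100a7l2 was listed in the authors' deposited table at -4.44 ± 1.32 with only 5.78 (Wald test adjusted p = 0.015), and reads of these related genes may be shared. The others had mean counts between 1.31 and 41.3.

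**Figure D3:**
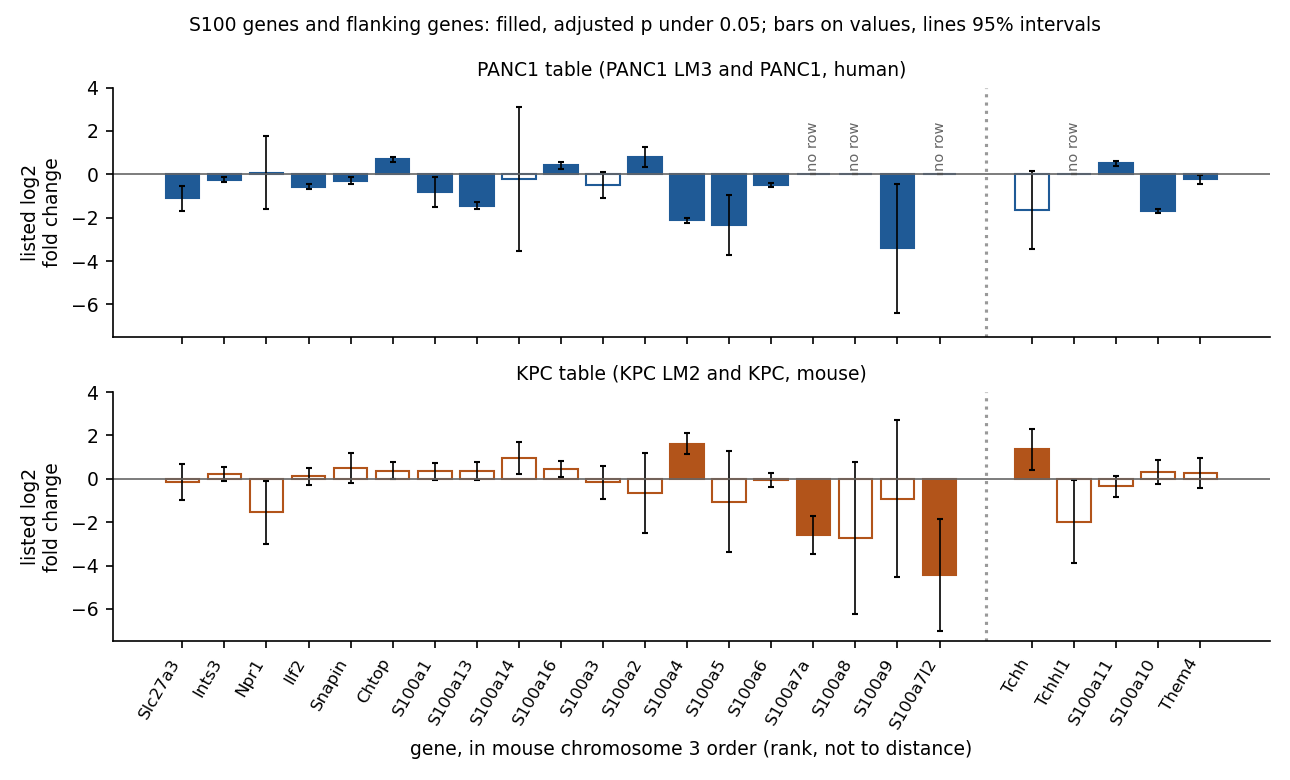
Listed log2 fold change (bars, y axis) with 95% intervals (lines) for S100 genes and genes beside them in mouse chromosome 3 order (x axis, by rank), for the same symbols in the PANC1 table (top) and in the KPC table (bottom); filled bars have an adjusted p under 0.05 and the dotted line parts 2 blocks. In PANC1 called bars of both signs stand along the order, and in KPC S100a4 is positive between neighbours that were not called.

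In PANC1 neighbours in the mouse gene order did not share 1 value. There S100A13 at -1.45 and S100A16 at 0.41 are parted by S100A14 alone. S100A10 at -1.70 adjoins S100A11 at 0.51, as listed in the authors' deposited table. In KPC the genes on either side of S100a4, which were S100a2 and S100a5, were listed in the authors' deposited table at -0.66 ± 0.94 and -1.05 ± 1.18 with mean counts of 5.98 and 3.66. Neither was called, and their difference from S100a4 was not tested. Snapin, Chtop, S100a1, S100a13 and S100a16 had KPC values of 0.35 to 0.50, with S100a14 among them at 0.95 ± 0.37. Ilf2 before this run was at 0.11 and S100a3 after it at -0.17, and none of these genes was called in KPC. Before the first block CHTOP, which lies next to S100A1, was called positive in PANC1 at 0.69 ± 0.07 in the authors' deposited table. ILF2 at -0.57 ± 0.05, SNAPIN, INTS3 and SLC27A3 were called negative there, and NPR1 was not called. Of 26 flanking genes, 12 were tested in PANC1 with 1 positive and 5 negative, a share near the 52.5% of all tested genes, and 21 in KPC with 1 called, Tchh, positive (4.76%, against 10.4%). The human order was not used here.

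Genes of proteins that S100 members bind gave 3 positive and 11 negative calls of 19 tested in PANC1, and 3 positive and 3 negative of 21 in KPC. These are 73.7% called in PANC1, against 52.5% of all tested genes and 69.3% of those at a mean count of 64 or more, and 28.6% in KPC, against 10.4% and 12.7%. Their median log2 fold change was -0.33 in PANC1 and -0.23 in KPC, where that of all tested genes was -0.002 in PANC1 and -0.08 in KPC. In KPC only 12 of the 21 were at 64 or more, where the median of all genes was 0.22. The 3 negative KPC calls, Dlc1, Ryr2 and Syt1, had mean counts of 34.0, 59.8 and 18.7. For S100A10, its partner gene ANXA2 was listed in the authors' deposited tables at -0.31 ± 0.06 in PANC1 (Wald test adjusted p = 1.42e-07) and at 0.75 ± 0.20 in KPC (Wald test adjusted p = 0.0043). Several membrane proteins reach the cell surface with the help of S100A10, and those called in PANC1 had both signs. The potassium channel gene KCNK3 was at -5.53 ± 0.18 in PANC1 with a mean count of 683, and the serotonin receptor gene HTR1B at -2.18 ± 0.16 with 211, in the authors' deposited table. The calcium channel gene TRPV6 was at 2.75 ± 0.61 with only 12.2 in PANC1 in the authors' deposited table, opposite in sign to S100A10 (Wald test adjusted p = 2.35e-05). In KPC the authors' deposited table gave Kcnk3 a mean count of 5.86 and Htr1b a value of -0.64 ± 0.30, neither called (Wald test adjusted p = 0.62 and 0.15). Trpv6 at -0.99 ± 0.56 and Trpv5 at -1.87 ± 0.73, with KPC mean counts of 17.3 and 15.7 in the authors' deposited table, were not called either (Wald test adjusted p = 0.23 and 0.074).

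For S100A11, ANXA1 was listed in the authors' deposited tables at 0.74 ± 0.06 in PANC1 (Wald test adjusted p = 6.55e-34), with the sign of S100A11, and at 0.10 ± 0.22 in KPC (Wald test adjusted p = 0.79). For S100A6, CACYBP and ANXA11 were at -0.52 ± 0.06 and -0.38 ± 0.06 in PANC1, with the sign of S100A6, and at 0.21 ± 0.25 and 0.23 ± 0.32 in KPC, as listed in the authors' deposited tables. Both PANC1 values were called and both KPC values were not. For S100A4, the myosin heavy chain gene MYH9 was at -0.51 ± 0.06 in PANC1 (Wald test adjusted p = 1.66e-19) and at -0.23 ± 0.26 in KPC (Wald test adjusted p = 0.55) in the authors' deposited tables, so each MYH9 value was smaller in size than that of S100A4. For S100A13, the synaptotagmin gene SYT1, part of the FGF1 release complex, was at 2.72 ± 0.10 in PANC1 in the authors' deposited table (Wald test adjusted p = 5.74e-162), opposite in sign to S100A13. For KPC the authors' deposited table gave Syt1 -1.54 ± 0.55 with a mean count of 18.7 (Wald test adjusted p = 0.048).

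RAGE and TLR4 are receptors of secreted S100 proteins, and the difference of their values between the models was not tested. TLR4 in PANC1 was at 0.12 ± 0.27 with a mean count of 46.9 (Wald test adjusted p = 0.76), and Tlr4 was called in KPC at 1.25 ± 0.32 with 597 (Wald test adjusted p = 0.0031), as the authors' deposited tables list them. AGER was at -0.66 ± 0.87 with 4.28 in PANC1 and Ager at -0.54 ± 0.66 with 11.5 in KPC in the authors' deposited tables, with no call in either. In PANC1 the authors' deposited table listed ATP2A2, the calcium pump of the endoplasmic reticulum, at -0.25 ± 0.05, and it was called. In KPC the authors' deposited table listed Atp2a2 at 0.61 ± 0.18 and Ryr2, the cardiac calcium release channel that S100A1 acts on, at -1.62 ± 0.52, both called. The mean count of Ryr2 was 59.8, and that of Atp2a2 was 7035.

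**Figure D4:**
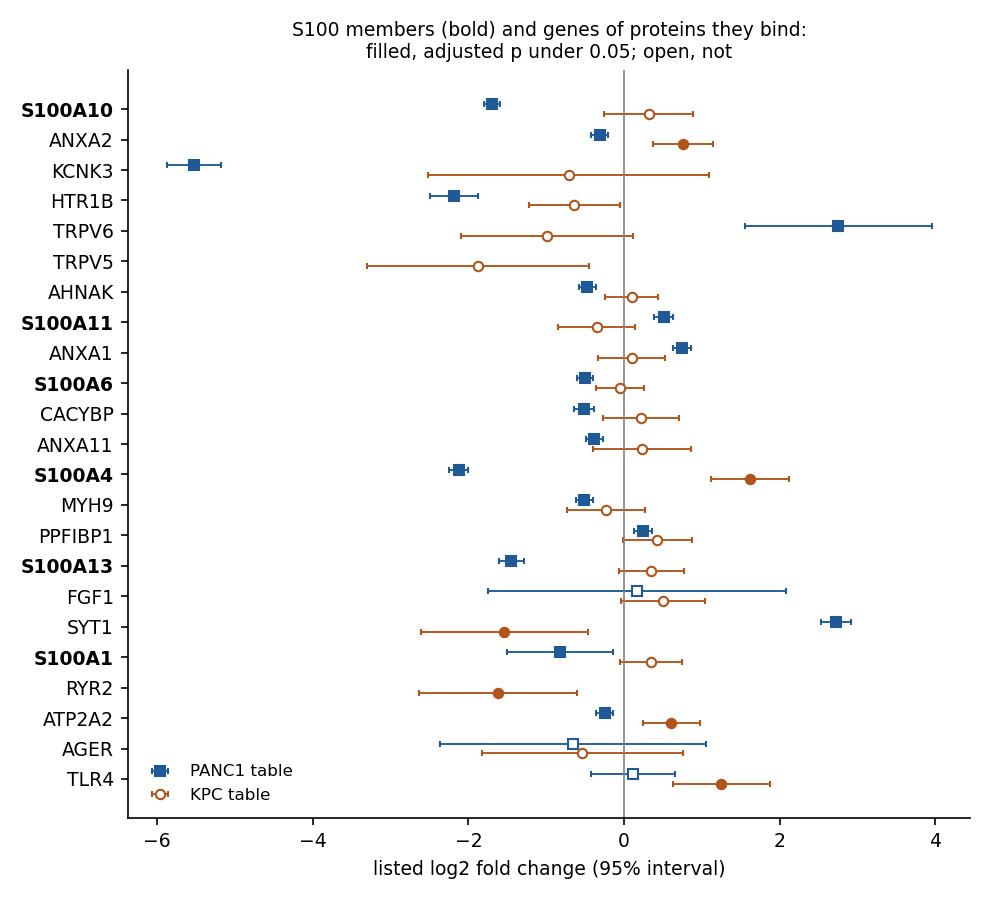
Listed log2 fold change (x axis) with 95% intervals for S100 members (bold) and genes of proteins they bind, each followed by its partners, in the PANC1 table (squares) and the KPC table (circles), filled where the adjusted p was under 0.05. KCNK3 and HTR1B in PANC1 lie at -5.53 and -2.18, beside S100A10 at -1.70, while TRPV6 lies at 2.75 and SYT1 at 2.72.

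Annexins, the calcium-dependent membrane-binding proteins that several S100 dimers hold, were called in 9 of 9 tested cases in PANC1, 2 positive and 7 negative, and in 2 of 12 in KPC, both positive. The share of all genes at a mean count of 64 or more that were called, where 8 of the 9 and all 12 lie, was 69.3% in PANC1 and 12.7% in KPC, beside 16.7% of the KPC annexins. ANXA5 joined ANXA1 on the positive side in PANC1 at 0.75 ± 0.05, and in KPC the second call beside Anxa2 was Anxa8 at 0.95 ± 0.22, as listed in the authors' deposited tables. The annexin medians were -0.31 in PANC1 and 0.45 in KPC, beside -0.03 and 0.22 for all genes at a mean count of 64 or more. Other small EF-hand sensors gave 4 positive and 10 negative calls of 19 in PANC1 and 2 positive of 19 in KPC. The PANC1 share was 73.7%, against 52.5% of all tested genes and 69.3% of those at a mean count of 64 or more. The KPC share was 10.5%, against 10.4% and 12.7%. Sorcin, the gene SRI, was at -0.56 ± 0.07 in PANC1 and 0.82 ± 0.25 in KPC, and CIB1 was positive in both at 0.65 ± 0.06 and 0.77 ± 0.25, as listed in the authors' deposited tables. The 3 calmodulin genes were at -0.55 to -0.02 in PANC1 and 0.13 to 0.20 in KPC. In the plasminogen system, which S100A10 with annexin A2 serves as a receptor, 4 of 8 genes were called in PANC1, all positive, a share near the 52.5% of all tested genes. SERPINE2, an inhibitor of plasminogen activators, at 2.36 ± 0.24 and the urokinase receptor gene PLAUR at 0.99 ± 0.20 were among them in the authors' deposited table. In KPC 1 was positive and 2 were negative of 9 (33.3%, against 10.4% of all tested genes), with Plau at -1.65 ± 0.19 and Serpine2 at -1.57 ± 0.39 in the authors' deposited table. The mean counts of Plau and Serpine2 in KPC were 417 and 61.2.

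The difference between the models was tested per gene as the PANC1 log2 fold change minus the KPC one over the combined SE, with adjustment over the 12777 symbols tested in both tables. If both tables have the same group order, 6 of the 8 members tested in both differed, against a background of 34.9% over genes at all levels. Of the 6 members at a mean count of 64 or more in both models 5 differed. The share of all genes at that level that differed is not given here. The difference was -3.75 ± 0.26 for S100A4 (adjusted p = 1.04e-43), -2.01 ± 0.29 for S100A10 (adjusted p = 2.98e-10) and -1.80 ± 0.23 for S100A13 (adjusted p = 9.92e-14). It was -1.17 ± 0.40 for S100A1 (adjusted p = 0.014), 0.86 ± 0.26 for S100A11 (adjusted p = 0.0044) and -0.45 ± 0.17 for S100A6 (adjusted p = 0.023). With the running median subtracted in both models S100A6 was at -0.17 and did not pass (adjusted p = 0.48), and the other calls stayed. S100A16 differed by -0.04 ± 0.21, with an interval from -0.45 to 0.36 and an adjusted p of 0.90.

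The group order is not stated, so the test was also run with the sign of the KPC table turned round, where the background over genes at all levels was 30.0%. Then 4 of the 8 members differed, and S100A6, S100A10 and S100A13 were the members that differed under both readings. Their differences with the sign turned were -0.55 ± 0.17, -1.38 ± 0.29 and -1.10 ± 0.23 (adjusted p = 0.0054, 3.88e-05 and 1.67e-05). S100A4 was then at -0.51 ± 0.26, with an interval from -1.02 to 0.01 and an adjusted p of 0.13, so its difference between the models rests on the group order of the tables. S100A16 was the fourth, at 0.85 ± 0.21 (adjusted p = 0.00035).

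**Figure D5:**
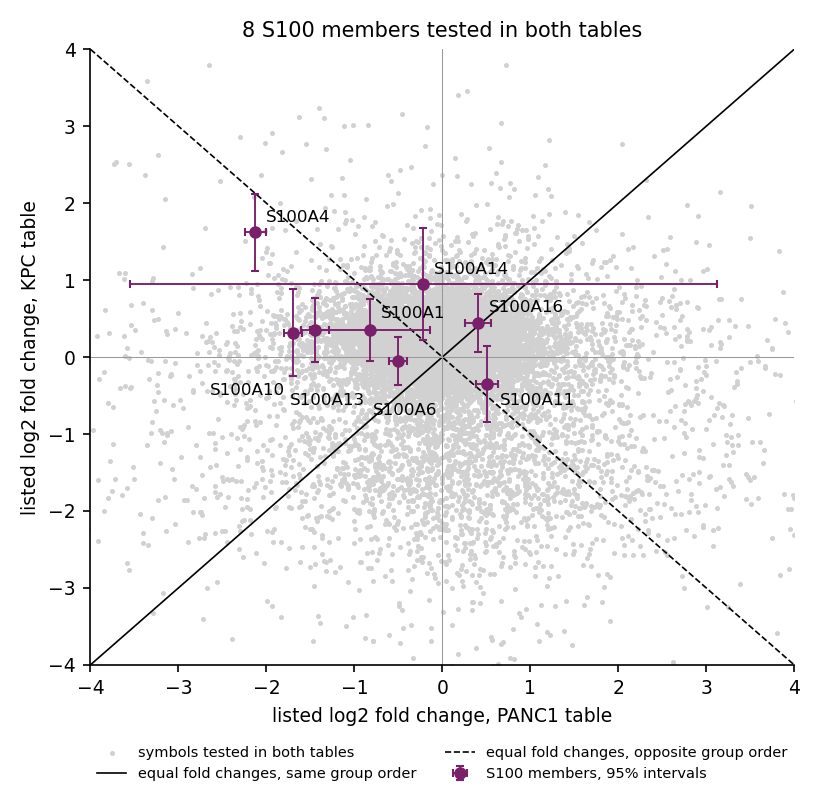
Listed log2 fold change in the PANC1 table (x axis) against that in the KPC table (y axis) for 8 S100 members with 95% intervals, over all 12777 symbols tested in both (grey, those within 4 log2 units). The solid line marks equal values under the same group order and the dashed line under opposite order. S100A16 lies near the solid line. S100A11 lies nearest the dashed one, followed by S100A1 and S100A4.

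If the samples were tumours, as the protocol has it, they could hold host liver cells beside tumour cells. In bulk samples fewer cells of a type and less RNA per cell cannot be told apart. With the human build hg19 used for PANC1, RNA of a host of another species would largely go uncounted. Low PANC1 counts of host markers therefore cannot show how many host cells were present. The 3 of 9 hepatocyte markers with a PANC1 row had mean counts of 1.92 to 7.56, and the 7 with a KPC row had 2.82 to 26.7 apart from Hnf4a at 2238. By the authors' Wald test 0 hepatocyte markers were called in either model, with 0 in PANC1 and 2 in KPC at an unadjusted p under 0.05. The background for this and the marker lists below was 52.5% of all tested genes called in PANC1 and 10.4% in KPC. Fibroblasts also express S100A4. Of the 7 fibroblast markers with a PANC1 row 1 was called, COL3A1, positive at 1.05 ± 0.11 with a mean count of 405 in the authors' deposited table, and COL1A1, the next in level, was at -0.13 ± 0.16 with 173 (Wald test adjusted p = 0.51). All 8 fibroblast markers had KPC mean counts between 5.55 and 41.4, against 2764 for S100a4, and 1 was called, Col1a1, negative with 19.9. The part of fibroblast RNA in the S100A4 values was not tested. Macrophage and other leukocyte markers reached a mean count of 1103 in PANC1 (CD68) and 471 in KPC (Cd14), with all others at 33.1 or less. Of these leukocyte markers 1 of 4 tested was called in PANC1, CD68 at 1.91 ± 0.07, and 1 of 7 in KPC, Adgre1 at -2.88 ± 0.75, in the authors' deposited tables. Adgre1 had a KPC mean count of 13.4, and 89.7% of all KPC genes under 16 were negative. Endothelial markers reached 9.89 in PANC1, where CDH5 at -4.09 ± 0.95 was 1 called of 2 in the authors' deposited table, and 30.7 in KPC, where 0 of 6 were called by the authors' Wald test and 2 had an unadjusted p under 0.05. Of 8 markers of ductal carcinoma and epithelium, 7 were called in PANC1, 1 positive and 6 negative, and 3 in KPC, 1 positive and 2 negative. These are 87.5% in PANC1, where 69.3% of genes at a mean count of 64 or more were called. In KPC they are 37.5%, against 12.7% of genes at that level. The PANC1 values of KRT8, KRT18, KRT19 and CDH1 were listed by the authors' deposited table at -4.35, -3.35, -3.79 and -3.92. These have the sign of S100A4, S100A10 and S100A13. MUC1 at -0.69 ± 0.18 and CLDN4 at -0.12 ± 0.05 were also called negative in PANC1. EPCAM was called positive there at 0.97 ± 0.10, and KRT7 at 0.09 ± 0.26 was not called. The part of these epithelial genes in the S100 values was not tested.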

How the data were processed

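RNA sequencing of 12 samples was analysed from 1 comparison table per model (PANC1 LM3 and PANC1, 3 each; KPC LM2 and KPC, 3 each). Per the submitters' processing notes the tools included DESeq2 1.24, STAR 2.7.6a, MultiQC 1.9 and featureCounts 2.0.0, with builds hg19 and mm39; settings, annotation and model design are not given in the sources used here. The authors' deposited mean normalised count (mean count) was read as a signal, counts divided by size factors and averaged over samples. Log2 fold changes and SEs were deposited on the log2 scale, and the deposited score, the Wald statistic, equalled their ratio within 9.17e-08. Deposited p-values equalled its two-sided normal p within 5.0e-08, and adjusted p-values a Benjamini-Hochberg adjustment within 2.5e-06. Adjusted p-values began at a mean count of 1.08 in PANC1 and 3.08 in KPC. With no value per sample, no count test could be run, and depth and replicate spread enter only through the SE. Nothing says that the replicates came from separate animals.

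Calls were adjusted p under 0.05 over all genes, and symbols were matched in capitals. Running medians were taken along genes ordered by level. Intervals are 95% from the SE and cover the authors' model error only. All 10 members are named. Other S100 genes were named where called or at a mean count of 64 or more, with S100P added after its values were seen, as were Hnf4a and Cd14 among the markers; of other lists, called genes with the smallest adjusted p and the partners of members. Some genes that this rule selects are not reported here. The members and lists were chosen with earlier results of these data known. Alternatives were an adjusted p of 0.01, a minimum log2 fold change of 1, adjustment over all genes, a level of 64 or more, recentring, trend subtraction and a t distribution with 4 degrees of freedom. The steps were run on simulated tables with known changes, drawn with normal errors of the listed SEs. A log2 change of 1 was recovered for 99% of changed genes in PANC1, and for 71% in KPC and in the difference test. False calls made up 6.57% of calls in PANC1, 5.52% in KPC and 8.11% in the difference test. Such tables cannot show whether the listed SEs suit groups of 3 samples. Calculations ran in matplotlib 3.10.9, scipy 1.17.1, pandas 2.3.3, numpy 2.4.6 and Python 3.11.15.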

Additional observations from a re-analysis of the deposited data

Results flagged for a closer look

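The 6 S100 members below differed between the models in the test of the difference, the PANC1 log2 fold change minus the KPC one, when both tables are read in the same group order. The values were -3.75 for S100A4, -2.01 for S100A10, -1.80 for S100A13, -1.17 for S100A1, 0.86 for S100A11 and -0.45 for S100A6. Of all symbols with an adjusted p in each model, whatever their mean count, 34.9% passed the same test. With the KPC sign turned round S100A6, S100A10 and S100A13 still differed, and S100A1, S100A4 and S100A11 did not pass. Spread among replicates could not be examined, since the tables hold no value per sample.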

How the results depend on the processing

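No alternative changed the sign of a tested member within a model. In PANC1 8 members were called as listed, and 4, S100A4, S100A9, S100A10 and S100A13, when an absolute log2 fold change over 1 was asked for as well. S100A1 and S100A9 lost their calls at an adjusted p under 0.01 and with the t distribution, and had mean counts under 64. In KPC S100a4 was the called member under 6 of 7 alternatives, with adjusted p-values from 1.9e-08 to 6.57e-06, and under a t distribution with 4 degrees of freedom 0 members were called (1 at an unadjusted p under 0.05). That setting is void for KPC: it called 0 of 20050 genes, and 4072 of them shared the adjusted p of S100a4, 0.43. For the difference between models, the alternatives called 4 or 5 members, against 6 as reported, and S100A1 and S100A6 lost their calls at an adjusted p under 0.01. With the KPC sign turned round the difference reversed for S100A14 (0.73) and S100A16 (0.85), and with the running median subtracted it reversed for S100A16 (0.24). The causes were not tested, except that a turned sign or a stricter threshold acts by construction. No paired analysis was possible because the tables hold no value per sample, and for the same reason leaving out each replicate was not run. Mean counts of 1.16 to 2.30 limit what S100A8, S100A9 and PANC1 S100A14 can show.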
